A study of Mus musculus with 19 samples.

Results

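Mature CD4 single-positive (SP) thymocytes were taken from a CITE-seq series on mouse thymus, in which the RNA of single cells and the DNA-tagged antibodies bound to their surface are counted under the same cell barcode. A cell was a member with no more than 15% mitochondrial UMIs (unique molecular identifiers, which tag single captured RNA molecules), at least 200 genes, at least 1 UMI each of Klf2, Cd4 and one of S1pr1 or Ccr7, and 0 UMIs of Cd8a, Cd8b1, Foxp3, Zbtb16 and Mki67. These RNA counts chose the members, so the RNA of these genes in the members is a description and no result. The gate held 4370 of 79569 cells (5.49%), which came from 17 mice on 19 lanes.

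The mice were 4 to 8 weeks old. There were 5 wild-type C57BL/6 (WT) mice and 2 mice of each of 6 lineage-restricted genotypes. In CD4-fated AND and OT-II mice a transgenic T cell receptor (TCR) recognizes MHC class II, and MHCI-/- mice lack B2m, the light chain of MHC class I, but keep a diverse TCR repertoire. In CD8-fated F5 and OT-I mice the transgenic TCR recognizes MHC class I, and MHCII-/- mice lack H2-Ab1, needed for MHC class II on the cell surface. AND and F5 mice also lacked Rag1, so that their thymocytes carry the transgenic receptor alone, and the F5 transgene is driven by CD2 sequences. The MHCI-/-, MHCII-/- and 3 of the WT samples (WT r1 to r3) were sorted for CD5+TCRβ+ cells; the AND, F5, OT-I, OT-II and other WT samples (WT r4 and r5) were not. WT r4 and r5 were run in 1 experiment together with the OT-II and OT-I mice, at another site than the other 2 experiments, so that in WT mice the sort and the site cannot be told apart. Each mouse was 1 replicate.

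Developing T cells that have passed positive selection lose one coreceptor, move to the medulla and mature for some days before they leave the thymus. Klf2 encodes a transcription factor that switches on the egress program, S1pr1 the receptor for sphingosine-1-phosphate that guides cells out into the blood, and Ccr7 the chemokine receptor that draws positively selected cells into the medulla. Surface CD69 and CD24 fall as SP cells mature, and CD69 holds S1PR1 inside the cell. Mature SP thymocytes also take up a tonic interferon signature before they leave.

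The members fitted their label by the measures that the gate did not use. Antibody to CD4 was counted over 4 times above antibody to CD8a in 4311 of the 4370 members, and in 97.1% to 100% of the members of each WT and CD4-fated mouse. In OT-I mice the share was 90.7% and 56.25%, so that the members of OT-I r2 went against the label in part. It was 33.3% and 0% of the 3 members and 1 member of the F5 mice, and 100% and 87.5% of the 4 and 16 members of the MHCII-/- mice. RNA of Zbtb7b, the transcription factor of the CD4 lineage, had a median over mice of 69.7 CPM (UMIs per 1000000 RNA UMIs of the summed cells), next to 27.9 CPM in mature CD8 cells, which met the same gate with Cd8a or Cd8b1 in place of Cd4. Itgae, the gene of the CD8-lineage integrin CD103, had a median of 0.758 CPM in members and 93.4 CPM in mature CD8 cells.

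The genes of the rule are given here as a description only. Of the members, 2856 held S1pr1 UMIs and 3923 held Ccr7 UMIs, 2409 of them both. At the edge of the rule, 727 members (16.6%) held exactly 1 Klf2 UMI, and 1528 cells met every condition but that for Klf2. S1pr1 was present in 17.3% of these 1528 cells, in 46.6% of members with 1 Klf2 UMI and in 51.9% of those with 2, at similar depth (median RNA UMIs 4526.5, 4546 and 4714).

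Depth differed between mice and bears on every count below. RNA UMIs per lane ran from 9893333 to 43303999 and antibody UMIs per lane from 4484116 to 34762051. Members of WT r5, OT-II r2 and OT-I r2 were the shallowest, with medians of 2724, 2385 and 3100.5 RNA UMIs, and 65.5%, 64.6% and 62.5% of them held a single Klf2 UMI. Antibody UMIs per member had a median of 962 in AND r2 and of 2178 to 6830 in the other mice that had at least 20 members. Among 78660 distinct barcodes 874 occurred in more than 1 lane, 6 of them those of members. Doublet scores marked 132 members (3.02%), below the 4.00% of all cells.

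Mature CD4 SP cells made up the largest shares in AND and MHCI-/- mice and few cells in F5 and MHCII-/- mice, while the shares in OT-I and OT-II mice overlapped before depth was made equal. They made up 21.8% and 21.9% of AND cells, 4.19% and 2.05% of OT-II cells and 11.7% and 17.5% of MHCI-/- cells. In CD8-fated mice they were 0.113% and 0.0221% of F5 cells (3 cells and 1 cell), 2.29% and 0.927% of OT-I cells and 0.115% and 0.306% of MHCII-/- cells (4 and 16 cells). WT mice had 8.62%, 8.98% and 10.9% in the sorted samples and 2.02% and 0.301% in the unsorted ones.

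Because the gate needs several UMIs, the shares were compared after every cell was thinned to 1000 RNA UMIs, which left out 7 to 921 shallower cells per mouse and keeps members with the highest levels of the gate's genes. The share was then 3.71% and 3.17% in AND mice, 1.53% and 1.76% in MHCI-/- mice, 0.363% and 0.429% in OT-II mice and 0.162% and 0.0903% in OT-I mice. No cell of the F5 and MHCII-/- mice remained, which allows a share of up to 0.114% and 0.0671% in F5 and of up to 0.0868% and 0.0583% in MHCII-/- mice, for counting error only. The CD4-fated mice had a mean of 1.83% ± 1.38 (SD, n = 6) and the CD8-fated mice one of 0.0420% ± 0.0689 (SD, n = 6). The difference of 1.78 percentage points had p = 0.00216 in the two-sided exact permutation test over mice, the smallest p that 6 against 6 mice can give. That test treats mice as exchangeable across genotypes, though each genotype gave 2 mice. A permutation test within genotype pairs gave p = 0.00926, the smallest p that it can give. Every CD4-fated mouse lay above every CD8-fated mouse. Without thinning, OT-I r1 lay above OT-II r2, and the exact permutation p was 0.00433. WT mice stood at 0.982%, 1.15% and 1.3% in the sorted and 0.245% and 0.172% in the unsorted samples, and the 2 kinds of sample did not overlap.

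**Figure D1:**
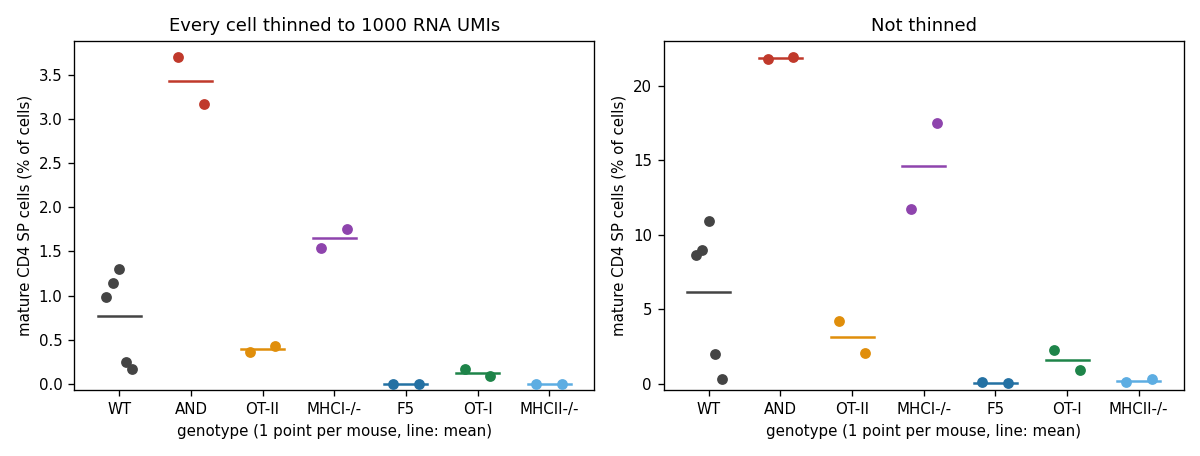
Share of mature CD4 SP cells in each mouse (percent of cells passing the RNA filters), after thinning every cell to 1000 RNA UMIs (left) and without thinning (right). Each point is 1 mouse and each line the mean of a genotype; AND mice lie highest, at 3.71% and 3.17% after thinning, and F5 and MHCII-/- mice lie at 0 there.

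The genotypes were checked in the members by the genes they target. B2m (ENSMUSG00000060802) stood at 65.4 and 66.3 CPM in MHCI-/- members and at 1262 to 2001 CPM in WT members. The fall in MHCI-/- against WT was 4.29 on the log2 scale (adjusted p = 0.00051, edgeR quasi-likelihood test with Benjamini-Hochberg adjustment over 9465 genes, the test of all RNA comparisons below). Antibody to Vβ5, the β chain of the OT-I and OT-II receptors, was counted at 517 and 435 per 10000 antibody UMIs in OT-II and 225 and 160 in OT-I members, and at 3.09 to 24.5 in the others. Trbv26, a β chain segment, had 17.8 and 36.4 CPM in AND members and 12 CPM or less elsewhere. Trac, the constant gene of the TCR α chain, had 6128 and 5511 CPM in OT-II and 2805 and 2670 CPM in AND members, next to 754 to 1349 CPM in WT and 1068 and 1170 CPM in MHCI-/- members. OT-I members had 336 and 245 CPM. In OT-II against WT, Trac was higher by 2.91 on the log2 scale (adjusted p = 0.0027).

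Many interferon-response genes were lower in AND than in WT members, among other genes that differed. Of 9465 genes tested, 151 passed an adjusted p of 0.05 (1.6%), 50 higher (0.528%) and 101 lower (1.07%) in AND. Of the 21 interferon-response genes tested, 15 fell in AND, none rose, and all 21 had a negative log2 fold change, with a median of -1.84 next to 0.01 over all genes tested. These fits held 13 mice with at least 20 members, with the experiment as a covariate. In the experiments of the AND mice every WT mouse was sorted for CD5+TCRβ+ cells, and no AND mouse was. Sort and genotype therefore cannot be told apart in AND against WT, here and below. The number of genes called fell to 42, 65, 73, 42 and 13 without WT r1, WT r2, WT r3, AND r1 and AND r2.

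The largest falls on that list were those of Oasl2 and Ifit3, antiviral effectors induced by type I interferon. Ifit3 (ENSMUSG00000074896) was counted at 75.8, 50.1, 56.6, 65.2 and 39.0 CPM in the 5 WT mice and at 3.55 and 4.06 CPM in the 2 AND mice. Its level in AND was lower by 4.02 (SE 0.36) on the log2 scale, with an adjusted p of 3.4e-05. Oasl2, a relative of the oligoadenylate synthetases, stood at 65.2, 24.2, 40.7, 37.1 and 91.0 CPM in WT and at 2.49 and 2.32 CPM in AND members, and fell by 4.19 on the log2 scale (adjusted p = 0.00029). No AND mouse overlapped any WT mouse for either gene, and both calls stood in every alternative fit.

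Ifit1, which binds RNA lacking the host cap modification, had 139 to 258 CPM in WT (median 185) and 40.5 and 34.6 CPM in AND, a fall by 2.47 on the log2 scale (adjusted p = 0.006). Ifi27l2a, the most abundant gene of the list, was nearly constant among WT mice at 2061 ± 98.7 CPM (SD, n = 5) and stood at 494 and 535 CPM in AND members, a fall by 2.04 (adjusted p = 0.0071). Irf7, the transcription factor that amplifies interferon production, had 52.0 to 172 CPM in WT and 52.6 and 46.1 CPM in AND, and fell by 1.62 although WT r5 lay between both AND mice.

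Usp18, Isg20, Rtp4, Xaf1, Gbp2, Igtp, Irgm1, Zbp1 and Ifi47 also fell, by 2.30 (Usp18) to 1.18 (Ifi47) on the log2 scale. Bst2 (log2 fold change -1.88, adjusted p = 0.14) and Isg15 (-1.80, adjusted p = 0.087) were among the 6 that did not pass. Genes of the same kind outside the list were among the 12 largest falls over all genes whose groups did not overlap: Iigp1, Tgtp1 and Tgtp2, interferon-induced GTPases, and Oas1a, an oligoadenylate synthetase, fell by 5.13, 3.75, 3.52 and 3.90.

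The low level was not particular to AND members. OT-I members, also low, fitted the label only in part, with CD4 antibody over 4 times CD8a in 90.7% and 56.25% of them. Their summed level of immature and cortical genes was 2650 to 4668 CPM, next to 1441 to 2105 CPM in WT. Whether this bears on their interferon RNA was not tested. OT-I members had 6.83 and 9.41 CPM of Ifit3 and 386 and 489 CPM of Ifi27l2a, and the summed level of the list was 1567 and 1495 CPM in AND, 1826 and 1506 CPM in OT-I, 2790 and 4139 CPM in OT-II, 5211 and 4270 CPM in MHCI-/- and 4441 to 5547 CPM in WT members. In OT-II against WT, 20 of the 21 genes had a negative log2 fold change (median -0.55) and none passed, Ifit3 having 9.85 and 18 CPM, a log2 fold change of -2.36 and an adjusted p of 0.085. In MHCI-/- against WT, 15 of 21 were positive (median 0.09) and none passed. These comparisons share the WT mice. The number of interferon genes lower in AND ran from 9 to 19 of the 20 or 21 tested over the alternatives, apart from 2 without WT r1, AND r1 or AND r2 each, and all of them stayed negative in every one.

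**Figure D2:**
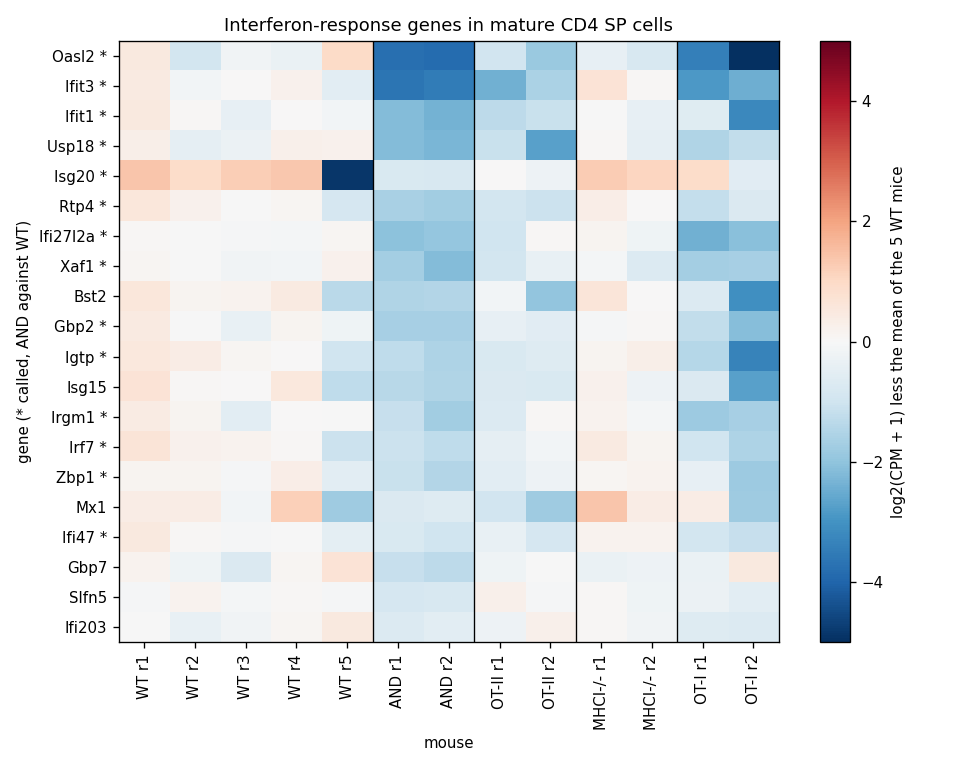
Shown are 20 of the 21 interferon-response genes tested, in the members of each mouse, as log2(CPM + 1) less the mean of the 5 WT mice (color), genes ordered by their log2 fold change in AND against WT and mice by genotype. Both AND and both OT-I columns are blue over most genes, and the WT r5 and OT-I r2 columns rest on 29 and 32 cells.

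The sequence at the start sites of the listed interferon genes was searched for the element to which interferon-activated factors bind. The letters GAAA, any 2 bases and GAAA again, the core of the interferon-stimulated response element, were searched on both strands (TTTC, any 2 bases and TTTC on the other) in the 300 bases around each start site given by RefSeq (GRCm38.p6). Of the 18 list genes with such a sequence, 13 (72.2%) held a match, next to 1079 of 27025 genes (3.99%). Among genes that fell in AND it was in 5 of 10, and among those tested that did not pass in 5 of 5. The list was chosen as interferon-response genes, so its share above that of all genes is no result of these data. The match was no more frequent among the genes that fell, so it lends the AND comparison no support. A match is a description and shows no binding. The 250 bases before the start sites of Ifit3 (chr19:34583279-34583528, plus strand), Ifit1 (chr19:34640639-34640888, plus strand) and Irgm1 (chr11:48871421-48871670, minus strand) are shown, since these genes fell in AND and hold 2 matches each, in capitals; those of Irgm1 overlap. The first match begins 156, 104 and 30 bases before the start site.
Ifit3: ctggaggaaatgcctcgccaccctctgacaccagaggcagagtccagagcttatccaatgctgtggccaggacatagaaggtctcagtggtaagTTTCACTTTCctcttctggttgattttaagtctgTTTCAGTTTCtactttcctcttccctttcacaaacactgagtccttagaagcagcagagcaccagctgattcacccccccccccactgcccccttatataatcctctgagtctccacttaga
Ifit1: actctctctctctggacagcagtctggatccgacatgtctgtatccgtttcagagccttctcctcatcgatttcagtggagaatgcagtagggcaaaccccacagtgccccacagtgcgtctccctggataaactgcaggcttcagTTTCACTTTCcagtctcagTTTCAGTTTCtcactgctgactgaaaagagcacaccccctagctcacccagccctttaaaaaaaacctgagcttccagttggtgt
Irgm1: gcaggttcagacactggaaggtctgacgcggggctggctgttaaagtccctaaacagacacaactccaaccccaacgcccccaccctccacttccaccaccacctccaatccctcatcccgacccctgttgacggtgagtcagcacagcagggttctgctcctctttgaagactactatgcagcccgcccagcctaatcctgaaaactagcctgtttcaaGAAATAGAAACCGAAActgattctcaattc

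Ly6a encodes Ly-6A/E (Sca-1), a surface antigen that interferon induces, so RNA and protein of the same gene could be compared. Ly6a RNA had 133, 93.1, 114, 77.7 and 26.0 CPM in WT and 10.7 and 8.32 CPM in AND members, and fell by 3.68 (SE 0.47) on the log2 scale (adjusted p = 0.00066). Antibody to Sca-1 was counted at 186, 176, 212, 144 and 110 per 10000 antibody UMIs in WT and at 48.7 and 61.8 in AND members, and fell by 2.59 (SE 0.42; adjusted p = 0.00013 over 111 antibodies). AND mice lay below every WT mouse in both readouts. OT-I members, which fitted the label only in part, were low in both as well, with 13.7 and 0 CPM and 25.6 and 15 per 10000. OT-II members had 87.1 and 168 CPM and 127 and 267 per 10000, and MHCI-/- members 162 and 107 CPM and 252 and 229 per 10000, within or above the WT range. Against OT-II the Sca-1 antibody was lower by 3.85 in AND (adjusted p = 0.00011) and by 3.40 in OT-I members (adjusted p = 4.4e-05).

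**Figure D3:**
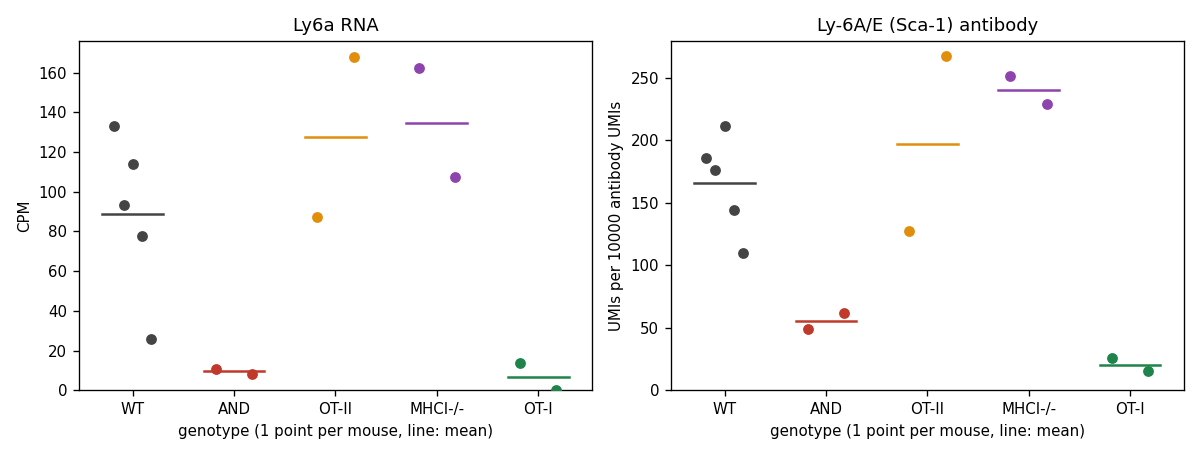
Ly6a RNA (left, CPM) and antibody to its product Ly-6A/E, Sca-1 (right, UMIs per 10000 antibody UMIs), in the members of each mouse. Each point is 1 mouse and each line the mean of a genotype; AND and OT-I mice lie lowest in both panels.

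Other gene groups were counted in the same way in AND against WT. Of 26 maturation and egress genes 2 rose and 1 fell, of 17 immature and cortical genes and 14 genes of the CD4 helper lineage none passed, and of 19 TCR signal targets 1 fell (Cd6, by 1.13). All 16 MHC class I genes had a negative log2 fold change (median -0.87), but of these only Nlrc5, the transactivator of MHC class I genes, fell with an adjusted p under 0.05 (by 1.56). B2m had 612 and 706 CPM in AND against 1262 to 2001 CPM in WT (log2 fold change -0.99, adjusted p = 0.35). Il7r, the receptor for the survival cytokine IL-7, fell by 1.96, with 48.3 and 65.8 CPM in AND mice next to 190 to 338 CPM in WT mice.

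Of 8 genes shared with regulatory T cells, 3 fell in AND and 2 in OT-II members, by comparisons that share the WT mice, and none passed in MHCI-/- members. Tnfrsf4, which encodes the costimulatory receptor OX40, had 104 to 162 CPM in WT, 23.8 and 19.9 CPM in AND members, and 12.1 and 0 CPM in OT-II members. It fell by 2.58 in AND (adjusted p = 0.01) and by 3.84 in OT-II members (adjusted p = 0.037). Ikzf4, encoding the transcription factor Eos, had 28.0 to 91.0 CPM in WT, 8.88 and 7.16 CPM in AND members, next to 9.09 and 18 CPM in OT-II members, and fell by 1.97 and 2.62. Antibody to OX40 did not pass in AND or OT-II members. It had 20.5 to 155 per 10000 in WT, 63.4 and 135 in AND and 10.6 and 10.1 in OT-II members (log2 fold changes -0.58 and -0.35, adjusted p = 0.13 and 0.94 over 111 antibodies). These fitted changes allow for the experiment and the scaling, and that of AND has the opposite sign to its levels, so no direction is read; WT r4 and r5, of the same experiment as OT-II, both had 20.5. The antibody to OX40 fell in MHCI-/- members by 1.43 (adjusted p = 0.012), at 23.1 and 24.1, within the WT range. This call was lost without the experiment as a covariate. Tnfrsf9, which encodes the costimulatory receptor CD137, was the third gene that fell in AND, by 2.71, with 5.68 and 4.06 CPM next to 13 to 40.0 CPM in WT. Antibody to CD137 went the other way, with 19.3 and 66.7 per 10000 in AND and 4.76 to 13.8 in WT members (log2 fold change 1.95, adjusted p = 6.6e-05). It was among the largest antibody rises in AND, with antibodies to proteins of other cell types such as NKp46, B220 and TER-119. AND r2 had a median of only 962 antibody UMIs per member, so no difference between RNA and protein is read. Il2ra, the gene of the IL-2 receptor α chain CD25, stood higher in OT-II than in WT members. Its level was 20.5 and 59.9 CPM (27 and 10 UMIs) in OT-II, next to 0 to 6.86 CPM in WT. It did not pass (log2 fold change 2.29, adjusted p = 0.87), and single members held 13 of the 27 and 5 of the 10 UMIs. Foxp3 was held at 0 by the gate. In OT-II against WT 8 of 9465 genes passed in all (0.0845%), 3 higher (0.0317%) and 5 lower (0.0528%), and the Tnfrsf4 and Ikzf4 calls in OT-II were lost in 10 and 9 of the 13 fits that left out 1 mouse.

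Some single genes stood far from WT in AND members, in OT-II members or in both. Hltf, encoding a DNA helicase-like repair factor, had 971 and 919 CPM in AND members and 20.6 to 78 CPM in every other mouse (log2 difference from WT 4.98, adjusted p = 9.7e-07; from OT-II 4.76, adjusted p = 0.00066). Cpa3, the mast cell carboxypeptidase gene 97125 bases away on chromosome 3, had 155 and 24.4 CPM in AND members, next to at most 0.571 CPM in WT members. Hltf UMIs were in 96.6% and 97.4% of the members of AND r1 and r2, but Cpa3 UMIs in only 7.03% and 2.32%. Dapl1, a gene of resting T cells, had 175 and 190 CPM in AND, 21.7 to 52.0 CPM in WT and 0.758 and 5.99 CPM in OT-II members. The OT-II levels were 1 UMI in each mouse, so the sizes of Dapl1 differences from OT-II rest on single UMIs. It rose by 2.70 in AND and fell by 4.51 in OT-II against WT (the latter call was lost in 9 of 13 fits that left out 1 mouse), and AND and OT-II differed by 7.20 on the log2 scale (adjusted p = 0.0012). Against OT-II, 5 genes passed in AND (0.0528%), 2 higher (0.0211%) and 3 lower (0.0317%). Arhgap20, which encodes a GTPase-activating protein, had 33.0 to 78 CPM in WT and was at 0 in both AND mice (adjusted p = 7.5e-06), and at 3.03 and 5.99 CPM in OT-II members. Nt5e, the gene of the ectonucleotidase CD73, had 2.79 to 13 CPM in WT and was at 0 in the AND, OT-II and OT-I mice, passing the test in AND (adjusted p = 0.0031).

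In OT-II members, 2 neighbors on chromosome 11 were high together. Rnf43 (chr11:87663087-87735539), encoding a ubiquitin ligase that restrains Wnt signaling, had 204 and 168 CPM and at most 26.0 CPM in the other mice. Bzrap1 (RefSeq Tspoap1, chr11:87758194-87785928) had 72.0 and 71.9 CPM and at most 2.76 CPM elsewhere. The genes lie 22655 bases apart in GRCm38, and both were called against WT (log2 fold changes 4.77 and 6.84, adjusted p = 0.0027 and 0.037). The call of Rnf43 was lost without WT r4, and that of Bzrap1 in 7 of the 13 fits that left out 1 mouse. In MHCI-/- against WT only 3 genes passed (0.0317%), B2m lower (0.0106%) and Rab4a and Eif3j2 higher (0.0211%). Rab4a, encoding a GTPase of endosome recycling, had 15.4 and 22 CPM in MHCI-/-, 25.6 and 30.2 CPM in AND and 0 to 2.86 CPM in WT members. Eif3j2, encoding a translation initiation subunit, had 39.5 and 35.6, 40.9 and 40.2, and 0 to 4.14 CPM. Both calls were lost in 7 of the 13 fits that left out 1 mouse, and all 3 without either MHCI-/- mouse.

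Genes listed for other cell types moved with the AND comparison. Of 10 genes of innate-like and γδ T cells 6 were higher in AND and none lower, and of 8 myeloid and dendritic genes 4 were higher. The summed level of the first list was 493 and 186 CPM in AND r1 and r2, 31.7 to 95.4 CPM in WT and 594 and 292 CPM in OT-I r1 and r2, while that of the second was 266 and 753 CPM in AND r1 and r2 next to 81.4 to 182 CPM in WT mice. Much of the MHC class II RNA was in few cells. In AND r2, 2 members held 654 and 618 of the 1309 UMIs of H2-Aa, H2-Ab1 and H2-Eb1, and in AND r1 a single member held 56 of 82. Single members held 63 of the 126 Cpa3 and 56 of the 110 Gzma UMIs of AND r2. In AND r1 these genes were spread more widely. There Cpa3, Gzma and Tcrg-C4, a constant gene of the TCR γ chain, were in 41, 44 and 33 of 583 members. The top members held 73 of 436, 76 of 604 and 22 of 155 UMIs. In AND r2 they were in 22, 31 and 5 of 947 members, and in each WT mouse in at most 4. Trdc, the constant gene of the TCR δ chain, was not carried by few cells: it had 308 and 138 CPM in AND, 0 to 47.4 CPM in WT and 471 and 179 CPM in OT-I members, and no AND member held more than 29 of its 866 UMIs in AND r1. Its UMIs were in 57.6% and 39.6% of AND and 65.1% and 40.6% of OT-I members. Trdc is therefore not read here as a mark of γδ T cells. Without the 5 members that held at least 5 MHC class II UMIs, 14 interferon genes were called lower in AND.

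The antibody panel also separated AND from WT members, but its count depended on the scaling. Of 111 antibodies 58 passed (52.3%), 34 higher (30.6%) and 24 lower (21.6%), with a median log2 fold change of 0.23 over all antibodies. Scaling by library size gave 59 higher and 7 lower (median 1.07), and RLE factors gave 21 higher and 30 lower (median -0.15), so no direction is read from the split. Besides Sca-1, antibody to CD86, a costimulatory ligand, fell by 2.14, from 28.4 to 61.3 per 10000 in WT to 13.1 and 26.4 in AND. CD5, a surface marker of TCR signal strength, had 2022 to 2979 per 10000 in WT and 1924 and 1462 in AND members, and fell by 1.49 (adjusted p = 0.0032), or by 0.67 with library-size scaling and 1.83 with RLE factors. WT r1 to r3 were sorted on CD5 and the AND mice were not, so for CD5 the sort and the genotype cannot be told apart in these mice. Antibodies to NKp46 and B220, which mark NK and B cells, were higher in AND by 3.16 and 2.26, and antibodies to proteins of other cell types, such as TER-119, ESAM, F4/80 and CD68, were among the largest rises. The summed RNA of 8 B cell genes was 148 and 155 CPM in AND members, within the 89.8 to 169 CPM of WT members. With library-size scaling the log2 fold changes of Sca-1, CD86, NKp46 and B220 were -1.77, -1.31, 3.99 and 3.1, each still past the threshold. AND r2 had the lowest antibody depth. Of its 947 members, 374 passed filters of 1000 to 10000 antibody UMIs and at least 70 antibodies detected. With these filters, 114 of the 117 antibody results named over all comparisons kept direction and call, and 3 lost the call. Whether antibody depth bears on these counts was not tested otherwise. With AND r2 left out, which leaves 1 AND mouse, far fewer antibodies were called higher and somewhat more lower.

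In OT-II against WT, 6 antibodies passed (5.41%), 5 higher (4.5%) and 1 lower (0.901%). With library-size scaling more were lower than higher, so no direction is read from the split. CD25, the IL-2 receptor α chain, had 12.6 and 42.2 per 10000 in OT-II and 2.08 to 7.37 in WT members (log2 fold change 2.86, adjusted p = 0.0014). CD90.2 (Thy-1) had 1151 and 1053 in OT-II against 121 to 563 in WT; the 2 WT mice of the same experiment had 563 and 519. In MHCI-/- against WT, 10 antibodies passed (9.01%), all lower. NK-1.1 led them, with 2.11 and 2.03 per 10000 in MHCI-/- members and 71.0, 31.9, 33.1, 4.79 and 3.41 in the WT mice, the first 3 from sorted samples. Without the experiment as a covariate no antibody passed in edgeR, 9 having an unadjusted p under 0.05.

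In OT-I mice, whose transgenic TCR recognizes MHC class I, 118 cells met the CD4 gate. Which receptor these cells were selected on was not measured, and their Vβ5 antibody was lower than in OT-II members by 1.47 on the log2 scale (adjusted p = 0.045). Against OT-II members 5 genes passed (0.0528%), 3 higher (0.0317%) and 2 lower (0.0211%), and 7 antibodies (6.31%), 4 higher (3.6%) and 3 lower (2.7%). Antibody to CD8a had 63.4 and 109 per 10000 in OT-I and 25.9 and 11.4 in OT-II members, and was higher by 1.94 (adjusted p = 0.0013), as was CD8b by 1.87, though Cd8a and Cd8b1 RNA were at 0 by the gate. Ccr9, a chemokine receptor of less mature thymocytes, had 796 and 2438 CPM in OT-I and 330 and 252 CPM in OT-II members (log2 fold change 2.32, adjusted p = 0.16). Myo6, encoding an actin motor, Actn2, an actin crosslinker, and Rrad, a small GTPase, rose by 4.91, 4.77 and 3.74.

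Within the gate, members with S1pr1 were compared with members without it. Of 26 maturation and egress genes 17 were higher in members with S1pr1, but with every cell thinned to 1000 UMIs, where 4 mice and 650 genes could be tested, no gene passed in edgeR, 54 having an unadjusted p under 0.05. In the 9 WT and CD4-fated mice with at least 20 cells of each kind, 1121 of 8486 genes passed (13.2%), 613 higher (7.22%) and 508 lower (5.99%) in members with S1pr1, with each mouse as a block. Both sides were made with genes of the rule: all members without S1pr1 hold Ccr7, next to 2409 of the 2856 with S1pr1, so RNA that goes with either gene differs between them by construction. Of the genes of the rule, S1pr1 and Ccr7 were left out of these counts, while Klf2 and Cd4 were not. The RNA differences below describe the 2 sides and are no independent support for a difference in maturation. Median depth was alike on both sides, for example 6159 and 6496 RNA UMIs in WT r1 and 5174.5 and 5055 in AND r2.

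Of 26 maturation and egress genes 17 rose and 3 fell (median log2 fold change 0.46). Klf3, a relative of Klf2, had 77.9 to 196 CPM with and 28.1 to 123 CPM without S1pr1, and was higher by 1.1 (SE 0.086) in 9 of 9 mice. S1pr4, another receptor for sphingosine-1-phosphate, rose by 0.90, Ms4a4b by 0.86, Dapl1 by 1.46 and Itgb7 by 0.60, each in 9 of 9 mice. Satb1, a chromatin organizer, fell by 0.66, as did Bcl2 (by 0.26) and Xbp1 (by 0.45). Il7r did not pass (log2 fold change -0.08, adjusted p = 0.45).

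Of 16 immature and cortical genes 7 fell and 3 rose. Itm2a, a membrane protein induced during positive selection, had 729, 720, 884 and 567 CPM without S1pr1 and 373, 276, 372 and 237 CPM with S1pr1 in WT r1 to r4, and was lower by 1.23 (SE 0.056) in 9 of 9 mice. Ccr9 fell by 1.26 and Cd24a by 1.47, each in 9 of 9 mice. Of 19 TCR signal targets 9 fell and 1 rose (Id3). Nfkbid fell by 0.75 and Nab2 by 0.62 in 9 of 9 mice, Egr2 by 0.92 in 6 of 9 and Nr4a1 by 0.45 in 7 of 9. Bcl2l1, which encodes the survival factor Bcl-xL, fell by 1.04, and Socs1, an inhibitor of cytokine signaling, by 0.71.

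Members with S1pr1 also had more RNA of MHC class I and of part of the interferon list. Of 16 MHC class I genes 9 rose and 1 fell (Tap2), among them H2-K1 (by 0.50), H2-D1 (by 0.39) and H2-Q7 (by 1.1) in 9 of 9 mice. Of 21 interferon genes 8 rose, among them Ifi27l2a (by 0.61 in 9 of 9 mice) and Ifit3 (by 0.97 in 8 of 9 mice), and 2 fell, Isg15 and Gbp2. Of 10 genes of recirculating or memory T cells 6 rose, S100a4 by 2.34 in 9 of 9 mice, and 1 fell (Itgb1). The 5 members high in MHC class II all held S1pr1, and all 8 myeloid and dendritic genes tested were called higher with S1pr1, but the summed level of that list had a median over mice of 96.5 CPM with and 116 CPM without S1pr1, and Cd74 was higher in only 2 of 9 mice. Without those 5 members 4 of these genes could be tested, and the 1 called was lower.

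**Figure D4:**
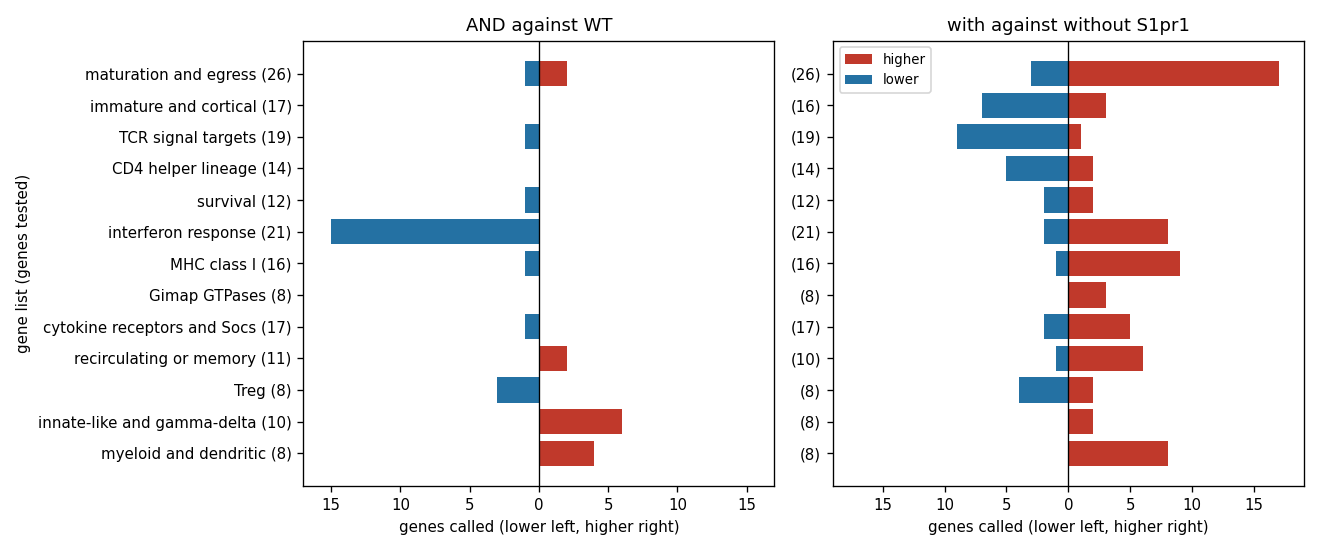
Genes called per list in members of AND against WT mice (left) and in members with against without S1pr1 (right), those lower to the left and those higher to the right of 0. The number of genes tested stands in parentheses; the longest bars are 15 interferon genes lower in AND and 17 maturation genes higher with S1pr1.

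The antibodies, which took no part in the gate or in this split, also differed between members with and without S1pr1. Of 111 antibodies 18 passed (16.2%), 10 higher (9.01%) and 8 lower (7.21%) with S1pr1. CD55, a complement regulator, was counted at 12.1, 11.6, 11.3 and 5.37 per 10000 with and at 3.75, 5.24, 5.27 and 2.83 without S1pr1 in WT r1 to r4, and was higher by 1.20 (SE 0.11) on the log2 scale over all 9 mice (adjusted p = 2.9e-06). CD69 was counted at 32.3, 35.8, 33.5 and 29.7 with and at 101, 99.7, 118 and 84.3 without S1pr1 in the same mice, and was lower by 1.29 (SE 0.15; adjusted p = 2.7e-05). Integrin β7 rose by 0.98, Sca-1 by 0.80 and CD49d (integrin α4) by 0.53. CD24 fell by 0.79, CD150 by 0.39 and CD11a by 0.34. Thinned, no antibody passed in edgeR in 4 mice, 5 having an unadjusted p under 0.05. The share of members with S1pr1, a gene of the rule, is a description with no test. After thinning it was 50.4% ± 8.21 (SD, n = 4) in AND and OT-II mice, all unsorted, and 44.0% ± 9.72 (SD, n = 7) in WT and MHCI-/- mice, of which 5 were sorted.

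**Figure D5:**
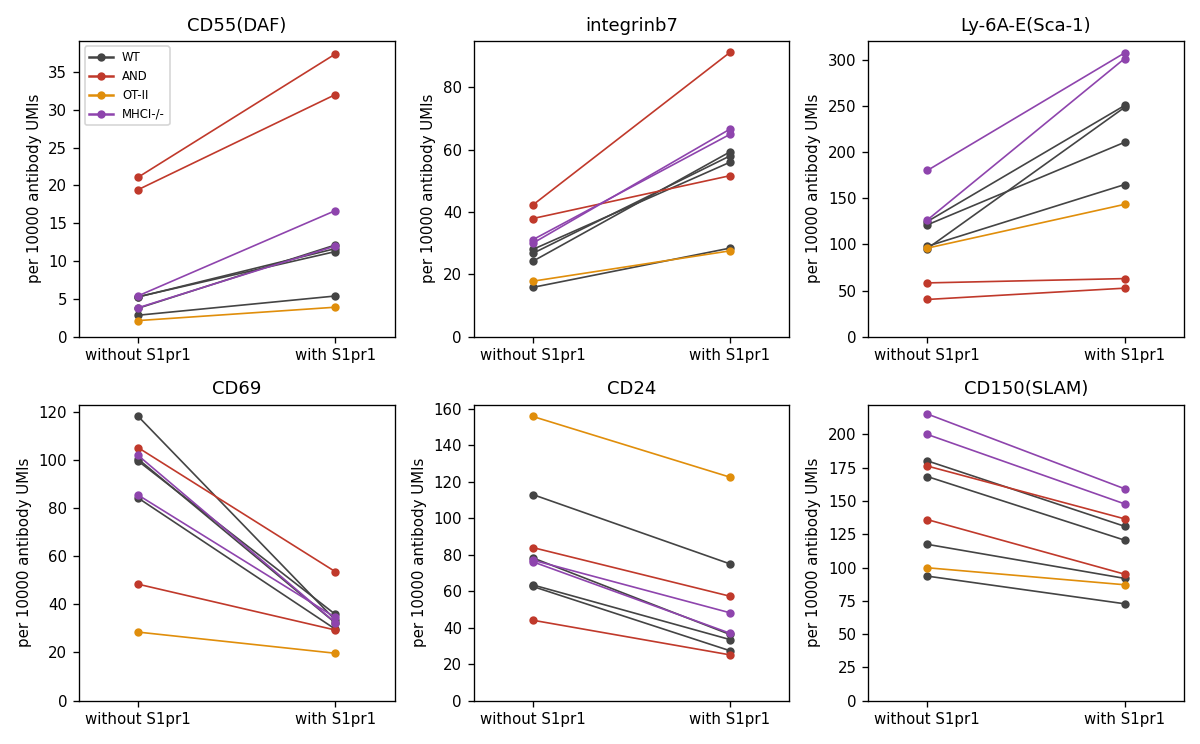
Antibody levels (UMIs per 10000 antibody UMIs) in members without and with S1pr1, 1 line per mouse (4 WT, 2 AND, 1 OT-II and 2 MHCI-/- mice). CD55, integrin β7 and Sca-1 are higher and CD69, CD24 and CD150 lower with S1pr1 in each of the 9 mice.

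The same antibodies separated members from less mature CD4 cells. The Klf2-negative CD4 cells, 1264 over all mice, met the conditions on mitochondrial UMIs, genes, Cd4 and the excluded genes. They held Ccr7 and lacked Klf2 and S1pr1. Only those of WT and CD4-fated mice were compared. In the 11 WT and CD4-fated mice 25 antibodies passed (22.5%), 13 higher (11.7%) and 12 lower (10.8%) in members. CD55 had 11.5 ± 9.93 (SD, n = 11) per 10000 in members and 2.89 ± 2.04 (SD, n = 11) in Klf2-negative cells, a log2 difference of 1.87 (adjusted p = 1.1e-06). Integrin β7 (by 1.52), Sca-1 (by 1.5), CD49d (by 0.88), GITR (by 0.47) and CD43 (by 0.42) rose too. CD69 had 49.5 ± 16.4 (SD, n = 11) in members and 101 ± 38.8 (SD, n = 11) in Klf2-negative cells, and fell by 1.04. CD8b and CD8a fell by 1.86 and 1.66 although both gates require 0 UMIs of their RNA, CD24 by 1.13 and CD150 by 0.74. CD4 differed by 0.15.

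Against mature CD8 cells of the 5 WT mice, 33 antibodies passed (29.7%), 21 higher (18.9%) and 12 lower (10.8%) in members; scaling by library size gave 7 higher and 19 lower. Apart from the coreceptors, integrin β7 had 37.8 ± 11.5 (SD, n = 5) per 10000 in members and 302 ± 125 (SD, n = 5) in mature CD8 cells, and was lower by 2.76 (adjusted p = 9.7e-08). CD103, its partner chain αE, was lower by 2.14. Sca-1 had 166 ± 39.3 (SD, n = 5) in members and 69.7 ± 13.2 (SD, n = 5) in mature CD8 cells, and CD5 2399 ± 359 and 1338 ± 230, higher in members by 1.43 and 1.04. Antibody to the TCR β chain, CD69 and ICOS were higher by 0.75, 0.79 and 0.64.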

How the data were processed

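The thymocytes of 17 mice were stained with a panel of DNA-tagged antibodies (TotalSeq-A) and run on 10x 3′ v3 lanes. Besides the 111 antibodies used here, lanes of WT r4, WT r5, OT-I and OT-II mice listed 99 other antibody features. All other lanes listed 3. Whether this bears on antibody levels between experiments was not tested. The authors deposited raw UMI counts per gene and per antibody for each lane, made with Cell Ranger 3.1.0 against mm10. Their integration across samples (totalVI) and pseudotime (Slingshot) were not used here. 2 lanes of WT r4 and of WT r5 were pooled per mouse.

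Counts of members were summed per mouse, and mice with at least 20 members (13 mice, 4346 members) were tested with edgeR 4.0.16 in R 4.3.3 (quasi-likelihood test, TMM scaling, experiment as covariate; mouse as block where 2 sets of cells of the same mice were compared), with Benjamini-Hochberg adjustment and a threshold of 0.05. MHCII-/- and F5 mice had too few members to be fitted. For RNA edgeR's newer quasi-likelihood fit was used and for antibodies the earlier one, a choice made after counts were seen: in simulated counts for AND against WT, 14.2% of RNA calls of the earlier fit were false and 4.08% of those of the newer, which recovered 43% of 2-fold and 98% of 4-fold changes. Levels are per 1000000 RNA UMIs (CPM) or per 10000 antibody UMIs. Alternatives used DESeq2 1.42.0, other scalings, filters and covariates, and left out each mouse in turn.

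Named features are those of 18 gene lists and 6 antibody lists that the text groups, plus, of called features whose groups did not overlap (or that moved the same way in every mouse), the 12 largest in each direction, leaving out the genes of the rule and TCR V segments; the genotype checks by Trbv26, Trac and the Vβ5 antibody, and CD25, CD90.2 and NK-1.1, were chosen after their values were seen where this rule did not take them. The members and lists were chosen with earlier results of these data known. Nothing in the sources used here says that same-numbered mice belong together, and deviations of same-numbered mice correlated with mixed sign. Intervals and floors cover counting error only. Some features that passed the tests are not reported here.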

Additional observations from a re-analysis of the deposited data

Results flagged for a closer look

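Among 37 quantities of the 5 WT mice, WT r5 lay apart from the other WT mice in 5, where chance gives about 1 in 20. These were the share of members with Ccr7 (72.4%), B2m (2001 CPM), Trbv12-2 (0 CPM), Arhgap20 (78 CPM) and Rnf43 (26.0 CPM). WT r5 had 29 members.

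The difference between AND and OT-II members, each against WT, is the AND against OT-II comparison, in which 5 genes and 29 antibodies passed. The 8 given here are those whose groups did not overlap, that were among the largest and that were also looked at mouse by mouse, a choice made with values known. On the log2 scale, AND less OT-II was 7.20 for Dapl1 (adjusted p = 0.0012), 4.76 for Hltf (adjusted p = 0.00066), -5.12 for Rnf43 (adjusted p = 0.01) and -4.57 for Ly6a (adjusted p = 0.013) in RNA. Among the antibodies it was -3.85 for Sca-1 (adjusted p = 0.00011), -3.60 for CD25 (adjusted p = 0.0011), -1.75 for CD90.2 (adjusted p = 0.029) and -7.45 for Vβ5 (adjusted p = 8.9e-08), the last being the β chain of the OT-II receptor. These p-values are from edgeR's quasi-likelihood test, and each group had 2 mice. The size for Dapl1 rests on 1 UMI in each OT-II mouse. The antibody values depend on the scaling: the median over all 111 antibodies was 0.13 as reported and 1.60 with library size.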

How the results depend on the processing

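Direction held in nearly all alternatives, while counts of calls moved. Over the 203 named features and 4544 alternatives, 3875 kept direction and call, 657 lost the call (368 of them of the 2218 that leave out 1 mouse) and 12 changed sign; the cause was not tested. For RNA, genes called in AND against WT numbered 251 with DESeq2, 320 with the earlier quasi-likelihood fit, 302 with at least 2 Klf2 UMIs, 294 with at least 50 cells per mouse and 243 with no low-count filter (151 as reported). The same settings gave 23, 22, 26, 21 and 15 in OT-II against WT, which had 45 with no experiment covariate, and 12, 13, 12, 10 and 11 in AND against OT-II, which had 33 with no experiment covariate and 8 with site. In OT-I against OT-II they gave 55, 28, 17, 28 and 25, with 12 for RLE factors, 14 without MHC class II-high cells, 18 with no experiment covariate and 14 with site. In MHCI-/- against WT, 6, 5 and 5 genes were called with at least 2 Klf2 UMIs, at least 50 cells and no low-count filter. The S1pr1 split gave 476 with DESeq2, 723 with at least 2 Klf2 UMIs, 169 without the mouse block and 0 thinned. For antibodies, AND against WT gave 15 with no experiment covariate; OT-II against WT gave 1 with at least 2 Klf2 UMIs, 1 with at least 50 cells and 3 with CD4 over CD8a antibody; MHCI-/- against WT gave 6, 6 and, with no experiment covariate, 0. AND against OT-II gave 54 with DESeq2, 5 with at least 2 Klf2 UMIs, 8 with at least 50 cells, 66 with library size and 8 with site, and OT-I against OT-II gave 4 with the newer quasi-likelihood fit, 3, 2, and 4 each with no experiment covariate, site and CD4 over CD8a antibody. The S1pr1 split gave 3 antibodies without the mouse block and 0 thinned, Klf2-negative cells 39 with the newer fit and 8 without the block, and mature CD8 cells 10 without the block. Higher and lower antibodies were 10 and 13 with RLE factors and 11 and 12 with library size in the S1pr1 split, 63 and 3 with library size and 10 and 17 with RLE in AND against OT-II (14 and 15 as reported), 3 and 6 with library size in OT-II against WT and 6 and 2 in OT-I against OT-II. The difference in the share with S1pr1, a description since the rule uses that gene, was 9.0 points not thinned and 9.54 thinned to 1500 UMIs (6.42 as reported).

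Leaving out 1 mouse gave 13 to 207 genes in AND against WT, 2 to 11 in OT-II against WT, 0 to 4 in MHCI-/- against WT (0 in edgeR without either MHCI-/- mouse, with 48 and 78 at an unadjusted p under 0.05), 2 to 7 in AND against OT-II, 2 to 20 in OT-I against OT-II and 853 to 1140 in the S1pr1 split. For antibodies it gave 36 to 73, 2 to 6, 6 to 10, 10 to 67, 1 to 9 and 14 to 19 in the same order, 22 to 33 against Klf2-negative cells and 21 to 34 against mature CD8 cells. The difference in member share ran from 1.41 to 2.08 points and that in the share with S1pr1 from 2.72 to 8.95. A group left with 1 mouse is assumed to vary like the others.

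Same-numbered mice correlated with mixed sign, so the numbers do not pair them. With the replicate block in place of the experiment, 58 genes were called in OT-II against WT, 72 in AND against OT-II and 12 in OT-I against OT-II, and 30 and 35 antibodies in AND and OT-II against WT. Crossing the OT-II numbers, a setting chosen after seeing the data, gave 36 antibodies in AND against OT-II and 6 in OT-I against OT-II.

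Signs changed in AND against OT-II for the antibodies CD274 (0.18 with library size), FceRIa (0.068 with library size, 1.87 with no experiment covariate, 1.85 with the replicate block and 1.85 crossed) and CD140a (1.46, 1.45 and 1.44 under the last 3), and in the thinned S1pr1 split for the antibodies ICOS (0.055) and CD71 (0.039) and the genes B2m (-0.0090) and Tnfrsf4 (0.37).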
